A study of Mus musculus with 6 samples.

Results

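Activated cancer-associated fibroblasts are matrix-depositing fibroblasts of tumours, and 9 genes known from that state were followed here in the dorsal skin of tight skin (TSK) mice. The genes were taken by name, Lrrc15, Fap, Postn, Cthrc1, Sulf1, Thbs2, Col8a1, Comp and Col10a1, and all 9 were found among the 55291 genes of the deposited tables. RNA was compared between 3 TSK mice and 3 wild-type (WT) littermates on the C57BL/6 strain, aged 6 to 8 weeks by their labels, with 1 library per mouse. TSK mice have part of Fbn1 duplicated on 1 of their copies in every cell, and Fbn1 encodes fibrillin 1 of the extracellular microfibrils. The mutation is kept by backcrossing, and no treatment is given for any mouse. Their sex is female in the labels but male in the methods. In all 6 libraries the Y-linked gene Ddx3y was at 56.7 to 72.8 CPM (counts scaled to a library total of 1000000) and Xist, made from the inactive X chromosome of females, at 2.57 to 4.58 CPM. Y-linked RNA in every library matches the methods and not the labels.

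In wound healing, fibrosis and tumours, fibroblasts that receive transforming growth factor beta (TGF-beta) and mechanical cues begin to deposit and remodel collagen-rich matrix. Lrrc15, a leucine-rich repeat protein of the cell surface, and Fap, a membrane protease that cuts after proline, mark such cells. Sulf1 trims sulfate groups from heparan sulfate outside the cell, while Postn (periostin), Thbs2 (thrombospondin 2), Comp (a thrombospondin of cartilage and tendon) and Cthrc1 are secreted proteins of the remodelling matrix. Col8a1 and Col10a1 encode short collagens that form networks rather than fibrils.

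Whole skin was sequenced, so that fewer cells of a type and less RNA per cell cannot be told apart. Library totals ran from 17561453 to 19219814 counts. Fbn1 was at 262 to 289 CPM in WT and 1540 to 2280 CPM in TSK, with no overlap. All 8 keratinocyte markers and all 12 general fibroblast genes were detected. The summed level of the fibroblast genes was 6820 to 10400 CPM in WT and 21400 to 49000 CPM in TSK, the latter in TSK 3. Summed markers of adult skeletal muscle were 162000 to 236000 CPM in WT and 139000 to 159000 CPM in TSK, those of adipocytes 149 to 217 and 502 to 2820 CPM, of hair follicles 9.73 to 22.3 and 39.9 to 45.9 CPM, and of macrophages 238 to 375 and 443 to 1230 CPM. Markers of endothelium ran from 133 to 157 CPM in WT and 216 to 389 CPM in TSK. Pericyte markers (368 to 491 and 483 to 719 CPM), Schwann cell markers (127 to 252 and 236 to 418 CPM) and keratinocyte markers (4900 to 9250 and 5810 to 9360 CPM) overlapped between the groups. With edgeR 3 of 9 tested adipocyte genes, 3 of 9 hair follicle genes and 1 of 7 endothelial genes rose, 0 of 11 muscle genes passed (6 at an unadjusted p below 0.05, 10 with a negative value), and 0 of 9 macrophage genes passed (7 at an unadjusted p below 0.05). Over all tested genes 3.39% were called, 2.71% were called higher, and 20.0% had an unadjusted p below 0.05. All 7 calls of the adipocyte, hair follicle and endothelial genes were lost without WT 3. That fit called only 60 of 20665 tested genes, against 678 of 19971 in the main test, so losses without WT 3 were general. With library size only 9 adipocyte, 4 hair follicle, 7 endothelial, 0 muscle and 3 macrophage genes were called, and with DESeq2 7, 2, 2, 9 and 4. These settings called 8.9% and 6.98% of all genes they tested. The part of these differences in the results was not tested.

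To show what lies in front of these genes, 100 bases ending at a transcription start listed by RefSeq are given for 4 of them whose promoter was in the table used (GRCm38.p6, which held 5 of the 9 genes) and that had counts in every library. The listed start of Thbs2 lies upstream of the gene as given in the annotation used here for loci and was not found in its transcripts, so the distances for Thbs2 count from the listed start only. Postn had 2 listed starts, and the one found in its transcripts is shown. The sequences read 5′ to 3′ on the strand of the gene, and capitals mark a TATA box (TATAAA), an AP-1 motif (TGANTCA) or a Smad-type motif (CAGACA), each searched on both strands.
Lrrc15, chr16:30283255-30283354, minus strand: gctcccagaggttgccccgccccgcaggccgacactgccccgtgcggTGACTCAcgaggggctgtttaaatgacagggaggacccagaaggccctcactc
Postn, chr3:54361007-54361106, plus strand: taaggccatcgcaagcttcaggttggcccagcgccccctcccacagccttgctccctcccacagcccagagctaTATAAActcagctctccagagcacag
Thbs2, chr17:14694263-14694362, minus strand: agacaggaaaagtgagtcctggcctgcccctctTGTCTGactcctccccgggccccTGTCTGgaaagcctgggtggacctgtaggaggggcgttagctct
Col8a1, chr16:57754738-57754837, minus strand: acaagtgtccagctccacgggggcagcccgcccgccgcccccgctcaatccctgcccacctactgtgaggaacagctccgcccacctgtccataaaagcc
The AP-1 motif of Lrrc15 lay 53 bases before its start, and 6.75% of all 32851 listed promoters held it in the 250 bases before the start. The TATA box of Postn lay 26 bases before its start, against 12.4% of promoters with one. None of the motifs was found at the other listed start of Postn. Thbs2 had Smad-type motifs at 67 and 44 bases on the opposite strand, and 17.1% of promoters held at least 1. Thbs2 also held a TATA box 126 bases before its start on the opposite strand, and Col8a1 a Smad-type motif at 103 bases, both outside the stretches shown. The other motifs searched were GGAATG (TEAD), which none of these promoters held against 12.6% of all, and CCAAT, which only Thbs2 among them held against 33.8% of all. These are matches of letters and not measured sites.

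The question was whether TSK skin carries this matrix-remodelling fibroblast state. Of the 9 genes, 8 passed the filter on low counts and 1, Sulf1, differed between the genotypes at an adjusted p below 0.05 (edgeR quasi-likelihood test over 19971 genes). Over all tested genes 3.39% were called at this threshold, and 2.71% were called higher in TSK. Fap was also higher in every TSK library than in any WT library, as were 29.1% of tested genes on the deposited CPM, but its adjusted p was 0.135. Lrrc15, Cthrc1, Thbs2, Col8a1, Comp and Postn overlapped between the groups. The thresholds of the original analysis (adjusted p below 0.01, fold above 2.5) were passed by 0 of the 8 genes with edgeR, against 0.29% of all tested genes. With DESeq2 the gene past them was Sulf1 alone, against 1.71% of all genes it tested, and Sulf1 was also the only one of the genes at an adjusted p below 0.05, against 6.98%. An unadjusted edgeR p below 0.05 was found for 2 of the 8 genes, Sulf1 and Fap, against 20.0% of all tested genes.

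**Figure D1:**
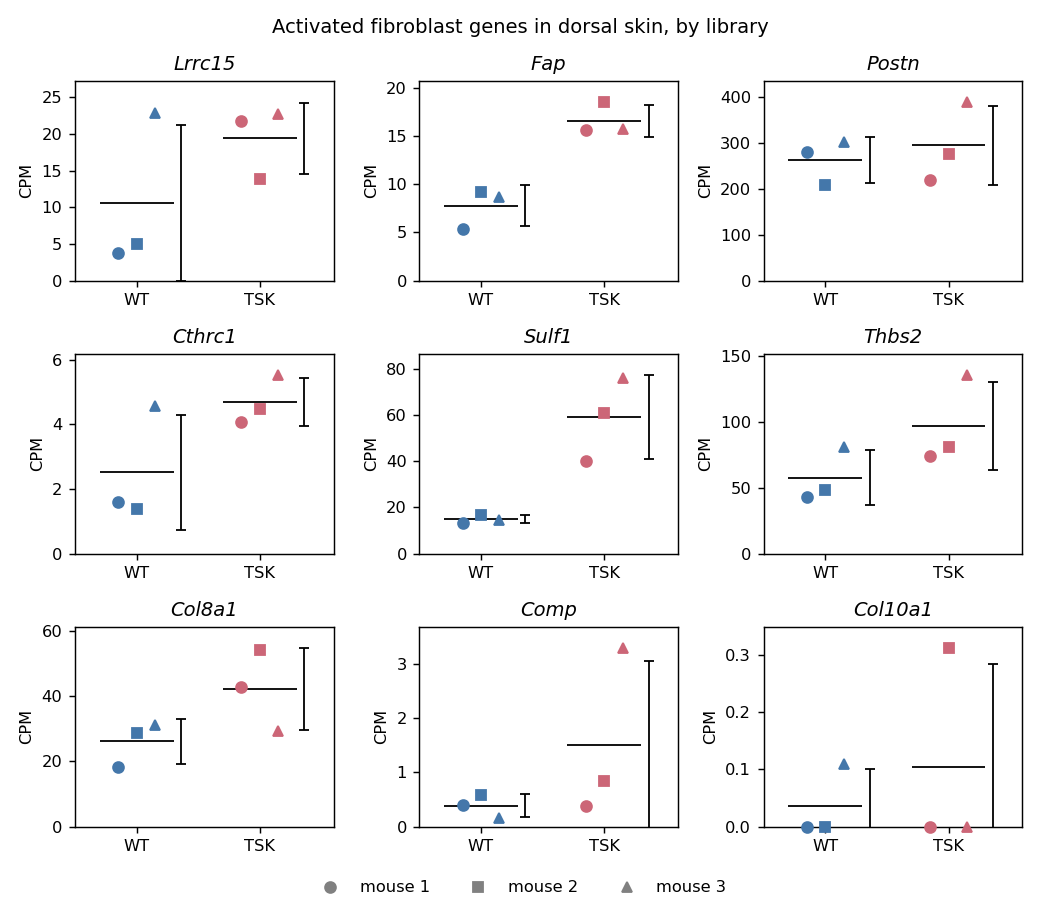
Level of each gene in CPM (vertical axes, each starting at 0) in the 3 WT and 3 TSK libraries; symbols give the mouse, the line the mean and the bar the SD, shown down to 0 only. Only Sulf1 and Fap had all TSK mice above all WT mice, as did 29.1% of all tested genes on the deposited CPM. On this scale WT 3 lay within the TSK range for Postn, Cthrc1, Thbs2 and Col8a1 and, at 22.8 CPM, just above it for Lrrc15.

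Sulf1 lies on the plus strand of chromosome 1 at 12692277 to 12861192 (mm10). The WT mice, 1 to 3, had 13.2, 16.8 and 14.5 CPM of Sulf1 and the TSK mice had 40.0, 60.9 and 76.2 CPM. The groups stood well apart, since the lowest TSK library was above the highest WT library by more than the whole WT range. The mean rose from 14.8 ± 1.85 to 59.0 ± 18.2 CPM (SD, n = 3), a ratio of 3.98. After TMM scaling, which corrects library size for a shifted makeup, the log2 fold change was 1.69 (SE 0.24, 95% interval 1.14 to 2.24, edgeR adjusted p = 0.0146). It ranked 119 of the 19971 tested genes by p. Without WT 3 the log2 fold change was 1.70 and the adjusted p 0.0696, in a fit that called 60 of 20665 tested genes. Over all alternatives the adjusted p ran from 7.38e-09 to 0.0696. Sulf2, the other extracellular sulfatase, was at 37.2, 28.3 and 34.0 CPM in WT and 52.9, 79.3 and 100 CPM in TSK. It also rose (log2 fold change 0.94, SE 0.20, edgeR adjusted p = 0.0419), but the call was lost in 5 of 6 fits that left out 1 library, all but that without TSK 1 (adjusted p up to 0.14).

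Fap (chromosome 2, 62500943 to 62574075, minus strand) had 5.32, 9.22 and 8.71 CPM in the WT mice and 15.6, 18.5 and 15.7 CPM in the TSK mice. The groups did not overlap, as was so for 14.1% of tested genes in this direction after TMM scaling and for 29.1% on the deposited CPM. Its log2 fold change was 0.79 (SE 0.26, 95% interval 0.20 to 1.38), and the adjusted p of 0.135 in edgeR missed the threshold. With library size only, which ignores the makeup of the libraries, the value was 1.10 and the adjusted p 0.0176; limma on the deposited CPM gave 0.0157. Fits without any 1 library ran from 0.55 to 1.02, and none of them passed. Scaling by library size only put the median of all tested genes at 0.25, against -0.03 with TMM, and called 8.9% of them. A stretch of 97 bases of Fap matches Gtdc1 at 95.9% identity, so a few reads may be shared. Dpp4, the closest relative of Fap and a marker of resting fibroblasts, rose from 7.01, 7.13 and 6.32 CPM to 31.2, 42.8 and 54.3 CPM. Its log2 fold change was 2.36 (SE 0.20) with an adjusted p of 0.00328 in edgeR.

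Lrrc15 (chromosome 16, 30269302 to 30283256, minus strand) had 3.82, 5.0 and 22.8 CPM in the WT mice and 21.7, 13.8 and 22.7 CPM in the TSK mice. WT 3 held the highest value of all 6 libraries, from 415 counts. The log2 fold change was 0.58 (SE 0.60), with a 95% interval from -0.80 to 1.96, so that neither no difference nor a difference of well over 2.5-fold lies outside it. Without WT 3 the value was 1.87 with an adjusted p of 0.0632 in edgeR, and it was 0.17 without WT 1 (adjusted p = 0.885) and 0.28 without WT 2 (0.898).

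Cthrc1, on chromosome 15 at 39076932 to 39087121, was at 1.59, 1.38 and 4.56 CPM in WT and 4.07, 4.47 and 5.51 CPM in TSK. On the deposited CPM WT 3 lay within the range of the TSK mice, and the other WT mice lay below it. After TMM scaling WT 3 was the highest of all libraries, at 5.15 CPM against 3.83 to 4.88 CPM in TSK. The log2 fold change was 0.61 (95% interval -0.37 to 1.59, edgeR adjusted p = 0.482), and 1.4 without WT 3 (adjusted p = 0.0832), 0.33 without WT 1 (0.692) and 0.36 without WT 2 (0.791).

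Thbs2, on chromosome 17 at 14665500 to 14694235, was at 43.1, 48.1 and 81.1 CPM in WT and 74.2, 80.8 and 135 CPM in TSK. WT 3 was above 2 of the 3 TSK libraries, and TSK 3 was the highest. The log2 fold change of 0.45 (95% interval -0.25 to 1.14, edgeR adjusted p = 0.46) became 0.81 without WT 3, 0.24 without WT 1 and 0.16 without TSK 3, and none of these passed.

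Postn was the most abundant of the genes and the one whose levels were nearest between the groups. It lies on chromosome 3 at 54361109 to 54391037 and was at 279, 207 and 302 CPM in WT and 220, 275 and 388 CPM in TSK. The groups overlapped between 220 and 302 CPM, where 2 mice of each genotype lay. The log2 fold change was -0.11 (SE 0.22, 95% interval -0.61 to 0.38, edgeR adjusted p = 0.819), and its sign turned to 0.17 with library size only. The upper end of the interval excludes a rise of 2.5-fold under TMM scaling. Tgfbi, a relative of Postn, was at 119 to 199 CPM in WT and 145 to 185 CPM in TSK (log2 fold change -0.12, which also turned, to 0.14, with library size only).

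Col8a1, on chromosome 16 at 57624258 to 57754737, was at 18.3, 28.8 and 31.1 CPM in WT and 42.9, 54.2 and 29.3 CPM in TSK. TSK 3, which had the most collagen RNA of all libraries (Col1a1 at 22600 CPM against 8300 and 9120 CPM in the other TSK mice), had the lowest Col8a1 of its group. The log2 fold change was 0.39 (95% interval -0.29 to 1.07, edgeR adjusted p = 0.52), and values of 0.18 without TSK 2, 0.61 without TSK 3 and 0.15 without WT 1 did not pass either. Its relative Col8a2 was at 7.75 to 15.9 CPM in WT and 11.1 to 15.9 CPM in TSK.

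Comp was low. The gene, on chromosome 8 at 70373558 to 70382066, had 7, 11 and 3 counts in WT and 7, 16 and 62 counts in TSK, which is 0.165 to 0.586 CPM in WT and 0.385, 0.832 and 3.29 CPM in TSK 1 to 3. A single library, TSK 3, stood above the rest. The log2 fold change of 1.65 had a 95% interval from -0.18 to 3.48 (edgeR adjusted p = 0.296) and was 0.39 without TSK 3. Of 12 markers of cartilage, bone and tendon, 4 passed the filter and none passed the test with edgeR, while 2 had an unadjusted p below 0.05 and 1 passed with DESeq2. Among them the tendon gene Tnmd was at 0.570, 0.532 and 0.550 CPM in WT and 2.25, 1.4 and 5.62 CPM in TSK, also highest in TSK 3 (log2 fold change 2.2, edgeR adjusted p = 0.0653), and the cartilage gene Matn1 had no count in any library. Another tendon gene, Scx, went the other way (log2 fold change -0.44, edgeR adjusted p = 0.279). It was at 4.27, 3.03 and 3.96 CPM in WT and 3.79, 3.12 and 3.07 CPM in TSK. After TMM scaling its TSK mice all lay below the WT mice. The summed level of the list overlapped, at 43.8 to 87.0 CPM in WT and 64.6 to 90.8 CPM in TSK. The part of tendon or cartilage in the Comp counts was not tested.

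Col10a1, the collagen of hypertrophic cartilage, was close to absent. It lies on chromosome 10 at 34389981 to 34397085, overlapping Nt5dc1 on the opposite strand. It had 0, 0 and 2 counts in WT and 0, 6 and 0 counts in TSK, and was not tested. A count of 0 allows up to 3 counts, or 0.156 to 0.171 CPM in these libraries, which covers counting error only. No difference was detectable at this depth.

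Of the remaining relatives, the other thrombospondin genes, 0 passed with edgeR on all libraries and Thbs3 passed with DESeq2. Thbs3 was higher in every TSK library (12.9 to 21.9 CPM in WT, 39.4 to 68.2 CPM in TSK, log2 fold change 1.23) with an edgeR adjusted p of 0.053. It passed with DESeq2 (adjusted p = 0.000741), library size only (0.00699), limma (0.00543), the size factors of DESeq2 in edgeR (0.0479), no low-count filter (0.00536) and the replicate block (0.0205), and without WT 1 (0.0464) or WT 2 (0.0469), but not without any 1 of the other libraries (0.0589 to 0.165). Thbs1, an abundant thrombospondin, was at 51.5 to 96.3 CPM in WT and 84.3 to 217 CPM in TSK (log2 fold change 0.65, adjusted p = 0.338), and its value was 0.23 without TSK 1. Thbs4, which is made in muscle and tendon, was at 41.6, 121 and 129 CPM in WT and 61.2 to 70.1 CPM in TSK (log2 fold change -0.87, adjusted p = 0.281). Without WT 1, the lowest library, Thbs4 passed at -1.24 (adjusted p = 0.0119).

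**Figure D2:**
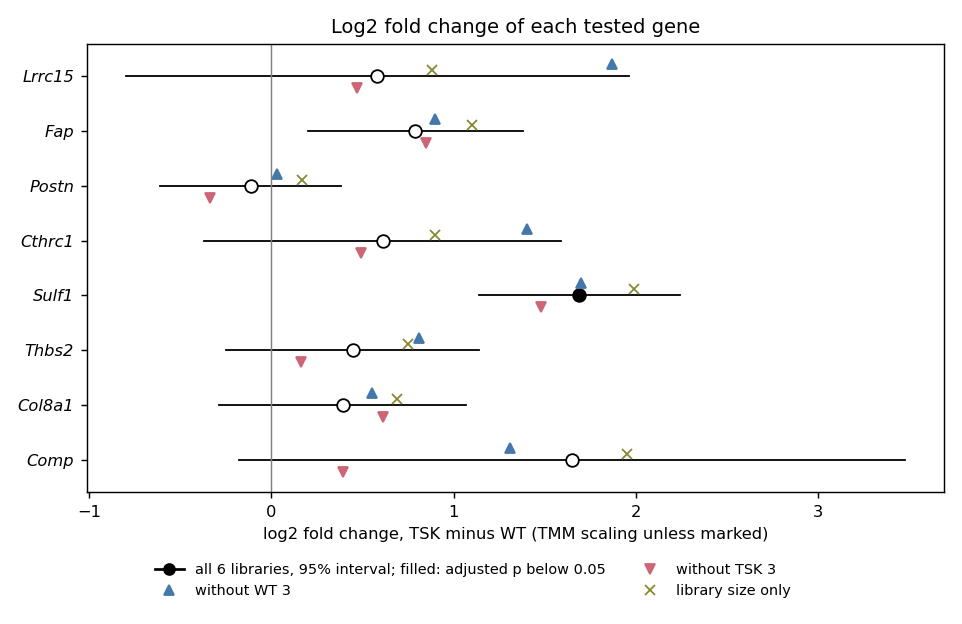
Log2 fold change, TSK minus WT (horizontal axis), of the 8 tested genes; circles are the fit on all 6 libraries with its 95% interval, and the other symbols leave out WT 3, leave out TSK 3, or scale by library size only. The interval of Sulf1 begins at 1.14, while leaving out WT 3 moved Lrrc15 from 0.58 to 1.87 and leaving out TSK 3 moved Comp from 1.65 to 0.39.

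To compare the genes with each other, CPM were divided by the length of the annotated exons in kb. Per kb, the order in WT was Postn (30.2 CPM per kb), Thbs2 (8.2), Col8a1 (3.33), Lrrc15 (1.99), Cthrc1 (1.58), Fap (1.37), Sulf1 (1.31), Comp (0.129) and Col10a1 (0.0117). In TSK the means per kb were 33.8 for Postn, 13.8 for Thbs2, 5.38 for Col8a1, 5.23 for Sulf1, 3.66 for Lrrc15, 2.94 for Cthrc1, 2.93 for Fap, 0.506 for Comp and 0.0332 for Col10a1. Sulf1 thus stood next to Col8a1 in TSK and below Fap in WT. In both groups the ranges of Postn, Thbs2 and Col8a1 were separate from each other, as were those of Comp and Col10a1 from the genes above them. The neighbours from Col8a1 down to the fourth gene below it overlapped in their ranges over mice.

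The genes also differed in how they varied within a genotype. On the log2 TMM CPM scale, the SD over WT mice was 1.43 for Lrrc15 and 0.93 for Cthrc1, against 0.41 and 0.18 over TSK mice. For Sulf1 it was 0.33 in WT and 0.43 in TSK, and for Postn 0.23 and 0.37. WT 3 was the highest WT library for 5 of the 8 tested genes, WT 2 for 3 and WT 1 for 0. Over all tested genes WT 3 was the highest WT library in 26.0%, WT 2 in 34.5% and WT 1 in 39.5%.

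For each gene, the profiles most like its own were sought among 17607 tested genes with a mean of at least 1 CPM, by the root mean square difference of log2 TMM CPM over the 6 libraries after centring. For Lrrc15 the nearest gene of all was Cthrc1, at 0.407 log2 units, followed by Gm48583 (0.436) and Cdh11 (0.443). The nearest to Cthrc1 were Morrbid (0.24), Rptn (0.254) and Snai1 (0.276). Sulf1 was nearest to C1qtnf1 (0.12), Ccdc80 (0.121) and F730311O21Rik (0.122). Their log2 fold changes (1.55, 1.59 and 1.64) are near that of Sulf1 by the way they were chosen. Fap was nearest to Amigo2 (0.107), Prdm16 (0.115) and Ncam2 (0.139). The nearest of the 9 genes to Sulf1 was Fap, at 0.516, and to Fap it was Col8a1, at 0.307. Postn was nearest to Ankrd39, Gm48203 and Gm11427 (0.0538 to 0.0654), Thbs2 to Lonrf2, Vsig2 and Loxl3 (0.107 to 0.148), and Col8a1 to Adcy4, Gng11 and Gnb5 (0.111 to 0.134). Comp had no profile closer than Tmprss11a (0.455).

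To see whether the genes were higher beyond fibroblast genes in general, each was taken relative to the mean log2 TMM CPM of 12 fibroblast genes in the same library. That mean was 7.36 in WT and 8.30 in TSK, a difference of 0.94 on the log2 scale. Relative to it, Sulf1 was at -3.16, -3.27 and -3.57 in WT and -2.74, -2.32 and -2.76 in TSK. Sulf1 was higher in every TSK mouse by this measure (difference 0.72, exact permutation test, two-sided, p = 0.1, the smallest that 3 mice against 3 allow). Only 0.746% of tested genes were higher without overlap by this measure.

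Postn and Thbs2 were lower in every TSK mouse relative to the fibroblast genes, with differences of -1.08 and -0.46 (exact permutation p = 0.1 for each). Lower values without overlap, found for these 2 of the 8 genes, were found for 64.4% of all tested genes. The differences were 0.09 for Lrrc15, -0.09 for Fap, -0.15 for Cthrc1, -0.54 for Col8a1 and 0.17 for Comp, and their groups overlapped. The sign of Lrrc15, Fap, Cthrc1 and Comp turned when single libraries were left out, and that of Fap and Cthrc1 without the fibrillar collagens among the fibroblast genes.

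**Figure D3:**
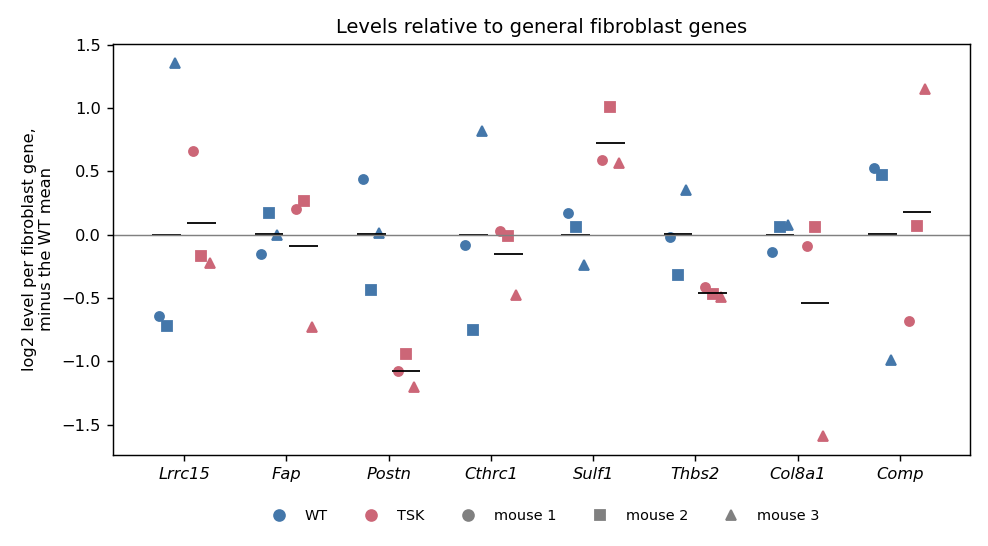
Log2 level of each tested gene relative to the mean of 12 general fibroblast genes in the same library, minus its WT mean (vertical axis), by mouse; black lines are group means. Sulf1 is the gene whose 3 TSK mice all lie above the WT mice, with a difference of 0.72, while Postn and Thbs2 lie below. By this measure 0.746% of all tested genes were higher without overlap and 64.4% lower.

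Other genes of the same state were read from a list of 26, of which 25 were tested. The list was chosen with earlier results of these data known, so its values are descriptive and give no independent support. With edgeR 6 rose and 0 fell, against 3.39% of all tested genes called, and the median log2 fold change was 0.80 against -0.03. For the 8 tested genes above the median was 0.59, and the order of the 2 medians depended on the libraries. Without WT 3 it was 1.11 for the 8 genes and 0.92 for the list, and without WT 1 it was 0.29 and 0.68. With library size only the medians were 0.89 and 1.11, against 0.25 over all tested genes. Mfap5, which binds fibrillin microfibrils, rose from 10.5, 13 and 12.1 CPM to 62.6, 103 and 102 CPM (log2 fold change 2.61, edgeR adjusted p = 0.00328). Fn1 (fibronectin) rose from 264 to 289 CPM in WT to 896 to 1620 CPM in TSK (1.76, adjusted p = 0.0148). Ctsk, a collagen-degrading protease, rose from 7.88 to 12.6 CPM in WT to 25.2 to 54.3 CPM in TSK (1.57, adjusted p = 0.036). Antxr1, a collagen receptor, had a log2 fold change of 0.80 (adjusted p = 0.0294). The metalloprotease genes Mmp11 (2.42, adjusted p = 0.0387) and Mmp14 (1.26, adjusted p = 0.037) were also called. Tnc (-0.70) and Grem1 (-0.06) had negative values, against 23 genes of the list with positive ones. When 1 library at a time was left out, Mfap5 was called in all 6 fits, Fn1 was lost without WT 3 (adjusted p = 0.0832), Ctsk without any 1 WT mouse or TSK 3 (up to 0.107), and Antxr1 without WT 2, WT 3, TSK 1 or TSK 3 (up to 0.136). The number called fell to 2 without TSK 3 and to 3 without WT 2 or WT 3, and was 14 with DESeq2 and 15 with library size only. The summed level of the list was 1940 to 2570 CPM in WT and 4520 to 8090 CPM in TSK, whereas that of the 9 genes was 317 to 465 and 419 to 676 CPM. Postn made up most of the sum of the 9 genes in every library (207 to 302 CPM in WT, 220 to 388 CPM in TSK).

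**Figure D4:**
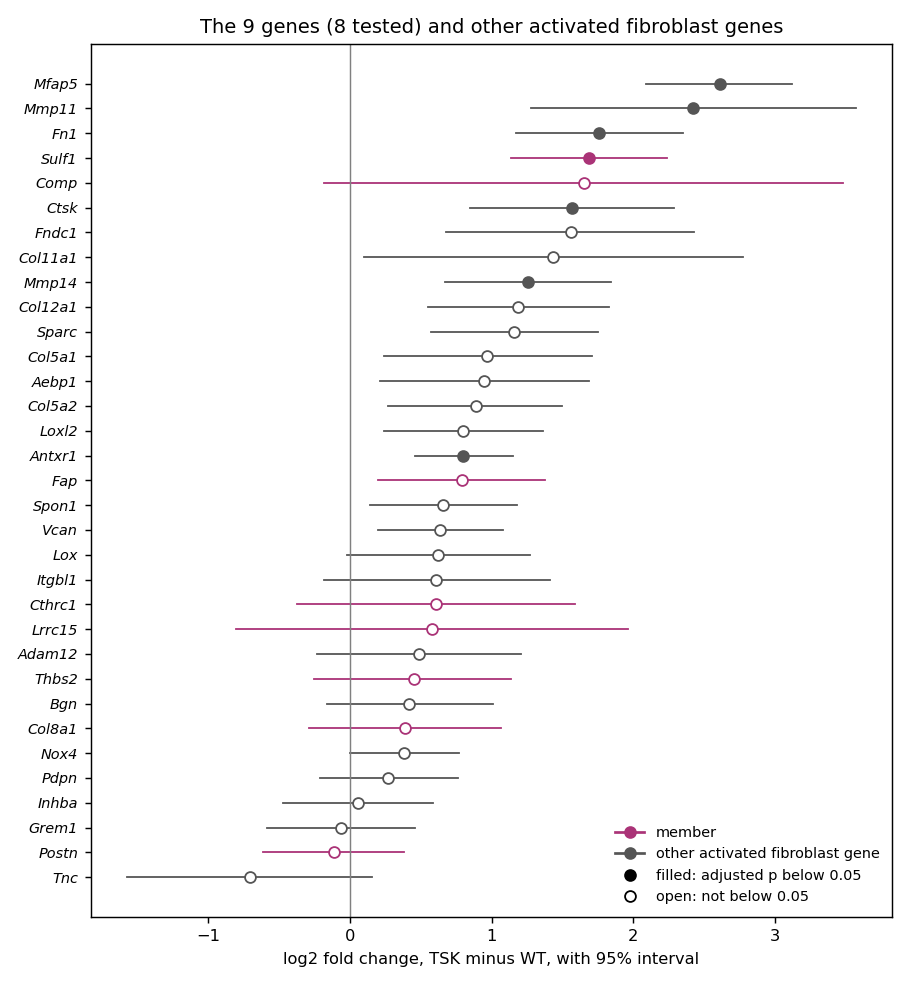
Log2 fold change, TSK minus WT, with its 95% interval (horizontal axis), of the 8 tested genes and 25 other activated fibroblast genes, sorted; filled circles passed an adjusted p of 0.05. Sulf1 at 1.69 lies among the called genes, and Postn at -0.11 is the second from the bottom.

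Neighbouring fibroblast states were counted in the same fit, also from lists chosen with earlier results of these data known. Of 8 genes of resting, progenitor-type fibroblasts 5 rose, with a median log2 fold change of 1.08. Over all tested genes 2.71% rose and the median was -0.03. Pi16, which marks these cells, rose from 13.1 to 21.6 CPM in WT to 95.9 to 294 CPM in TSK (3.14, edgeR adjusted p = 0.0118), Anxa3 rose by 2.03 on the log2 scale and the surface marker Cd34 by 0.94. Without WT 3 the calls of Pi16 (adjusted p = 0.0656) and Cd34 (0.108) were lost, and that of Cd34 also without WT 2 or TSK 2, while Anxa3 was called in all 6 fits. Of 12 general fibroblast genes 1, the surface protein gene Thy1, rose (0.72, adjusted p = 0.0437). Its call was lost without any 1 of the libraries (adjusted p 0.0534 to 0.116). All 12 had positive values, with a median of 0.94, and 8 were called with DESeq2, against 6.98% of all genes it tested.

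Of 9 contractile genes, which mark myofibroblasts and smooth muscle, the smooth muscle myosin gene Myh11 rose (log2 fold change 0.79, edgeR adjusted p = 0.0366), against 2.71% of all tested genes. Its call was lost in 5 of 6 fits that left out 1 library, all but that without WT 1 (adjusted p up to 0.117). The list had 6 positive and 3 negative values with a median of 0.65. Tagln was at 11.3 to 15.1 CPM in WT and 22.6 to 31.2 CPM in TSK, with an edgeR adjusted p of 0.059. With DESeq2 3 of the 9 passed, Myh11 (adjusted p = 0.00107), Tagln (0.00747) and Cnn1 (0.0357), and 5 passed with library size only or limma. After TMM scaling 4 of the 9 genes were higher in TSK without overlap, against 14.1% of all tested genes. Of 10 TGF-beta target genes 0 passed with edgeR, with 4 at an unadjusted p below 0.05 (20.0% of all tested genes), 2 with DESeq2 and 4 with library size only or limma. The list had 6 positive and 4 negative values with a median of 0.23, which was 0.13 without WT 1 and 0.52 with library size only. The 4 with the lowest p were Ldlrad4 (log2 fold change 0.77, adjusted p = 0.0634), Pmepa1 (0.84, adjusted p = 0.0765), Smad7 (0.39) and Ski (0.32), of which Ldlrad4 and Pmepa1 passed with the replicate block. After TMM scaling these 4 of the 10 genes were higher in TSK without overlap, against 14.1% of all tested genes, and 0 were lower. Of 8 tested genes of inflammatory fibroblasts 1 rose, the chemokine gene Cxcl12, from 45.6 to 51.9 CPM in WT to 103 to 138 CPM in TSK (0.99, edgeR adjusted p = 0.0147, lost without WT 3 at 0.0819), and 3 passed with DESeq2. The list had 6 positive and 2 negative values with a median of 0.90. Ccl7, another chemokine gene, had a negative value (-0.86, adjusted p = 0.173), at 3.3, 1.33 and 1.81 CPM in WT and 1.21, 1.51 and 1.48 CPM in TSK; after TMM scaling its TSK mice all lay below the WT mice.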

How the data were processed

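RNA of whole dorsal skin from 3 WT and 3 TSK mice was read from stranded, ribosomal RNA-depleted libraries (single-end reads of 50 bases). The authors demultiplexed with bcl2fastq 2.19.1.403, aligned with STAR to mm10 and quantified genes of an Ensembl annotation in Partek Flow 11.0; whether counting used strand is not given in the sources used here. The deposited estimated counts were not whole for most genes (43.3% to 45.4% of non-zero values of a library lay within 0.001 of a whole number), so they were rounded before testing, where raw counts had been planned for. The deposited CPM were scaled to 1000000 by the authors, and a gene with no count was taken as 0.

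Genes were kept by filterByExpr and tested with edgeR 4.0.16 (R 4.3.3, TMM, quasi-likelihood test, two-sided), with Benjamini-Hochberg adjustment over all tested genes. DESeq2 1.42.0 and limma 3.58.1 on log2(CPM + 1) were alternatives, beside other scalings and filters, a fit with the replicate number as a block, and fits without each library in turn. Log2 fold changes are TSK minus WT, with SE from the F statistic. Log2 TMM CPM used a prior count of 2. Named genes are the 9 genes, Fbn1, all relatives, up to 4 genes per list with the lowest p, and the 3 nearest profiles. Further genes of the other activated fibroblast list were named after their values were seen. The 9 genes and the lists were chosen with earlier results of these data known. Loci and exon lengths are from GENCODE M21, 1-based. Member transcripts were compared with other genes by BLAST for matches of at least 50 bases at 95% identity; of these genes Fap and Col8a1 had any. No library of a group repeated another (lowest chi-square per degree of freedom 8.02). Statistical scripts were tested on simulated data.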

Additional observations from a re-analysis of the deposited data

How the results depend on the processing

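The call of Sulf1 held in every alternative except without WT replicate 3. The number of the 9 genes at an adjusted p below 0.05, 1 in the main test, was 2 with library size only and with limma on the deposited CPM, and 0 to 1 when a library was left out. At the thresholds of the original analysis it was 0, and 1 with library size only, DESeq2, limma, no low-count filter or the replicate block, and 0 without any 1 library. Over all tested genes the counts (678 and, at those thresholds, 58) were 1778 and 304 with library size only, 1533 and 376 with DESeq2, 1871 and 283 with limma, 1387 and 356 with no filter, and 60 to 1260 and 1 to 46 without 1 library. Of the calls 79.9% were higher in TSK with TMM, 94.8% with library size only and 56.6% without WT 1. Without WT 1 there were 713 calls higher and 547 lower, against 542 and 136 in the main test. The fit without WT 3 gave the lowest count, 60.

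The replicate numbers did not pair the mice (correlations 0.0112, 0.167 and -0.0938). With the replicate block 99 genes passed the thresholds of the original analysis. At an adjusted p below 0.05 the block called 44 genes over all other lists and 11 of the other activated fibroblast genes. Without it 22 genes were called over those lists, 73 with library size only, 65 with DESeq2, 69 with limma, 55 with no filter and 5 to 29 without 1 library. For the other activated fibroblast genes the count of 6 was 15, 14, 15 and 11 under these, and 2 to 6 without 1 library.

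Postn turned to 0.17 with library size only, 0.14 with limma, 0.03 without WT 3 and 0.04 without TSK 1 (-0.34 to 0.04 without 1 library). Tgfbi turned to 0.14 and 0.17 with library size only and limma, and to 0.06 without WT 1 (-0.19 to 0.06), Col8a2 (0.09) to -0.09 without WT 3 and -0.02 without TSK 1 (-0.09 to 0.34), and the keratinocyte gene Dsg3 (-0.27) to 0.02 with limma. Relative to the fibroblast genes, Lrrc15 turned to -0.23, -0.27 and -0.20 without WT 1, WT 2 and TSK 1 (-0.27 to 0.77), Fap to 0.23 without TSK 3 (-0.27 to 0.23) and 0.09 without the fibrillar collagens, Cthrc1 to 0.26 without WT 3, 0.01 without TSK 3 (-0.52 to 0.26) and 0.03 without those collagens, and Comp to -0.32 without WT 3 and -0.31 without TSK 3 (-0.32 to 0.6). The count of 3 genes without overlap by that measure was 3 to 4 without 1 library and 2 without those collagens. The causes were not tested. Over the 8 tested genes, 104 of 111 values kept direction and call. Counts were few for Comp (3 to 62 per library) and Col10a1 (0 to 6 per library).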

Other observations

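Some other activated fibroblast genes were high in WT 3, a pattern picked after their values were seen and given without a test. Tnc (tenascin C), Col11a1 and Mmp11 in WT 3 lay above both other WT mice by 1.3, 1.2 and 1.53 on the log2 TMM CPM scale, as did Lrrc15 by 2.06 and Cthrc1 by 1.55. Tnc in WT 3 was above the mean of the TSK mice by 1.49, whereas Mmp11 in WT 3 was below that mean (-1.43). Mfap5, Fn1 and Sulf1 in WT 3 were not above both other WT mice. The same held for Col5a1, Grem1, Aebp1, Nox4, Loxl2, Sparc, Fndc1, Spon1 and Antxr1 of the list.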
